A study of Mus musculus with 6 samples.

Results

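A set of 9 named genes of the glucocorticoid response was followed through the sham-operated and the post-stroke mouse cortex. They are the receptors Nr3c1 and Nr3c2, the steroid-activating enzyme Hsd11b1 and the responsive genes Fkbp5, Sgk1, Tsc22d3, Plin4, Zbtb16 and Cdkn1a. They were chosen by name and matched to the Ensembl identifiers of the files, and all 9 are among the 15441 genes with a value in at least 1 library. Of the 9, 8 were listed in all 6 libraries, and Plin4 was listed in 3.

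The series profiled the whole ipsilateral cortex of male C57/BL6J mice aged 6 to 8 weeks by strand-specific sequencing of poly(A) RNA. Photothrombosis, in which Rose Bengal given before illumination is excited by cold light through the intact skull so that vessels of the sensorimotor cortex clot, was followed for 1, 3, 7, 14 or 28 days. The control was the sham operation, carried out without illumination and collected at day 7 only, so that days 1, 3, 14 and 28 have no sham of their own time after surgery. Each of the 6 groups is 1 library of RNA pooled from 3 mice. No spread between animals can therefore be had, no test was possible, and every difference below compares 1 pool with 1 pool.

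Glucocorticoids, corticosterone in the mouse, are released from the adrenal cortex under stress and enter cells freely. In the cytosol the glucocorticoid receptor waits in a complex with heat shock protein 90 and its co-chaperones, and once it binds steroid it moves to the nucleus, where it binds DNA at response elements or acts through other factors. The brain also holds the mineralocorticoid receptor, which binds corticosterone with higher affinity, and the enzyme 11-beta-hydroxysteroid dehydrogenase type 1, which regenerates active steroid inside the cell. Several direct targets, among them Fkbp5, Sgk1, Tsc22d3 and Per1, are widely read as markers of this response, although each is also under other controls.

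The deposited values are FPKM (fragments per kilobase, scaled to the mapped fragments of the library) of single transcript starts, transcript ends and splicing events. A gene's value in a library was taken as the largest of its summed starts, its summed ends and any single event. An event can be absent from a file, which need not mean that its gene had no signal, so "not listed" is used here in place of 0. Hspa8, Mobp and Pdgfra, for example, were listed in no library. No ratio is given against a library in which a gene was not listed. Such a gene was taken as 0 only for counts and for summaries over several genes, such as medians. Ratios are log2((FPKM + 0.1)/(control FPKM + 0.1)), which understates the change of genes at low FPKM, and a gene with at least 1 FPKM in either library was called higher or lower past 2-fold. Reads per library were not given, only an average, so counting intervals could not be computed.

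Of the 9 genes, 5 passed 2-fold above the control at day 1 (Fkbp5, Sgk1, Tsc22d3, Plin4 and Cdkn1a), where 5.11% of all genes compared did. At day 28, 4 passed it (Fkbp5, Sgk1, Plin4 and Cdkn1a), where 3.68% of all genes compared did. Plin4 counts only because it was not listed in the control, and at day 28 Fkbp5 and Cdkn1a passed narrowly, at log2 ratios of 1.03 and 1.07. Tsc22d3 passed it at day 1 only. The receptors did not pass it at any day. The plot of levels by library shows the values that the following paragraphs give gene by gene.

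**Figure D1:**
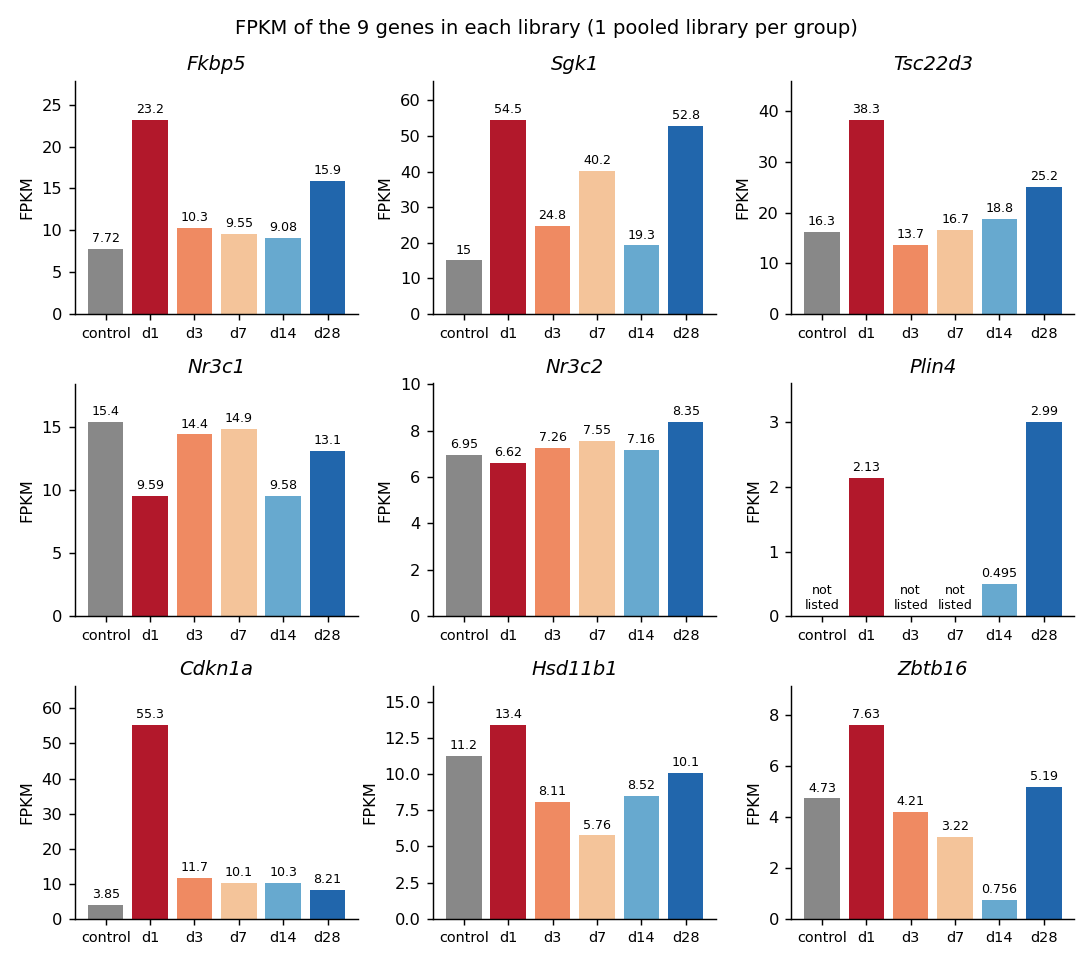
FPKM of each of the 9 genes (vertical axis, own linear scale from 0 in each panel) in the 6 libraries (control, then days 1, 3, 7, 14 and 28), 1 bar per pooled library and the words not listed where it was not. The day 1 and day 28 bars stand above those of days 3, 7 and 14 for Fkbp5, Sgk1, Tsc22d3, Plin4, Hsd11b1 and Zbtb16, whereas Cdkn1a has a single tall bar of 55.3 FPKM at day 1.

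Nr3c1 (ENSMUSG00000024431, chromosome 18, minus strand) encodes the glucocorticoid receptor. It was measured at 15.4 FPKM in the control and at 9.59, 14.4, 14.9, 9.58 and 13.1 FPKM at days 1, 3, 7, 14 and 28. Days 1 and 14 were thus the lowest libraries, each 0.68 below the control on the log2 scale, while days 3 and 7 were within 0.09 of it. Genes with long transcripts were lower at these same days, with a Spearman rho across genes between the log2 ratio and the length of the longest transcript of -0.25 at day 1 and -0.41 at day 14, and the longest transcript of Nr3c1 has 6436 nt. After the ratios had been centred on the median of genes of like length, Nr3c1 stood at -0.55 and -0.40 at those days. Its start events were unevenly assigned, the main one being listed at 12.3, 7.21, 0.00737, 5.35 and 10.5 FPKM in the control and at days 1, 3, 7 and 28 and not at all at day 14. Its value in every library is that of its single listed end, which exceeded the summed starts of 13.3, 8.78, 1.14, 6.91, 7.68 and 11.0 FPKM in the control and at days 1, 3, 7, 14 and 28.

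Nr3c2 (ENSMUSG00000031618, chr8:76899442-77245012, plus strand) encodes the mineralocorticoid receptor. It had 6.95 FPKM in the control and 6.62, 7.26, 7.55, 7.16 and 8.35 FPKM at days 1, 3, 7, 14 and 28. The highest and the lowest library differed by 1.26-fold, the narrowest range among the genes listed throughout. Its log2 ratios ran from -0.07 at day 1 to 0.26 at day 28.

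Hsd11b1 (ENSMUSG00000016194, chr1:193221634-193264075, minus strand) encodes the dehydrogenase that turns inert 11-dehydrocorticosterone back into corticosterone. Its values were 11.2 FPKM in the control and 13.4, 8.11, 5.76, 8.52 and 10.1 FPKM at days 1, 3, 7, 14 and 28. The gene was lowest at day 7, with a log2 ratio of -0.95 that did not pass 2-fold, and it passed after the correction for transcript length. At day 1 it stood 0.25 above the control and at day 28 0.16 below it. These levels are its summed ends. Its single start gave values near them after stroke, from 5.07 FPKM at day 7 to 13.3 FPKM at day 1, but only 0.341 FPKM in the control, so that ratios taken on the start alone would be high at every day.

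Fkbp5 (ENSMUSG00000024222, chr17:28399094-28517527, minus strand) encodes FKBP51, a co-chaperone that lowers the affinity of the glucocorticoid receptor for its hormone and is itself induced by it. It was listed at 7.72 FPKM in the control and at 23.2, 10.3, 9.55, 9.08 and 15.9 FPKM at days 1, 3, 7, 14 and 28. Every post-stroke library lay above the control, with day 1 at 3.00-fold and day 28 at 2.05-fold, and days 3, 7 and 14 at no more than 1.33-fold. Its log2 ratio of 1.57 at day 1 was exceeded by 2.42% of the genes compared, and that of 1.03 at day 28 by 3.55%. A single start is listed for the gene in all libraries, and the RefSeq promoter at that start (250 bases before to 50 bases after it, GRCm38.p6, minus strand) lies at chr17:28486100-28486399. It is shown because all of the Fkbp5 signal is assigned to it, in lower case throughout since it holds no copy of either motif searched below.
Fkbp5 promoter: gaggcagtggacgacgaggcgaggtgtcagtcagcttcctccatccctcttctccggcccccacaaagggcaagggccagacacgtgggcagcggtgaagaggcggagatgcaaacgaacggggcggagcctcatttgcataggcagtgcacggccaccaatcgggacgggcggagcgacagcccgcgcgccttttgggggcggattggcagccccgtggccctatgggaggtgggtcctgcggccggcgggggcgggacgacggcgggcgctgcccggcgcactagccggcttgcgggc

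Sgk1 (ENSMUSG00000019970, chr10:21882184-21999903, plus strand) encodes a serum- and glucocorticoid-regulated kinase that acts on ion channels and transporters and shares substrates with Akt. It had 15.0 FPKM in the control and 54.5, 24.8, 40.2, 19.3 and 52.8 FPKM at days 1, 3, 7, 14 and 28. Days 1 and 28 were close to each other and highest, at 3.63-fold and 3.51-fold, day 7 followed at 2.68-fold, and days 3 and 14 were at 1.65-fold and 1.28-fold. Of the genes compared, 1.97% had a higher ratio at day 1 and 1.37% at day 28.

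The gene's value is its summed starts, of which 4 are listed, and outside day 14 most of it lies in the last 2, which are 776 bases apart. The start at chr10:21993890 had 9.97, 41.2, 14.5, 21.4 and 27.6 FPKM in the control and at days 1, 3, 7 and 28, and was not listed at day 14. The start at chr10:21994666 had 3.38, 12.4, 5.48, 17.8, 4.65 and 24.9 FPKM in the control and at days 1, 3, 7, 14 and 28. At day 1 both were higher by like amounts, 4.13-fold and 3.67-fold, whereas at day 28 the upstream one stood at 2.76-fold and the downstream one at 7.38-fold. The downstream start accordingly held 22.5% of the summed start FPKM in the control, against 22.7%, 44.2% and 47.2% at days 1, 7 and 28. At day 14 the far upstream start, 112482 bases before the last one, was listed at 14.2 FPKM beside the missing one, against 1.68 FPKM in the control. A change of start and a different assignment of the same fragments cannot be told apart in these files.

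The promoter of the upstream of these 2 starts is shown because it holds the letters of a palindromic glucocorticoid response element. The letters searched were AGAACA and TGTTCT with any 3 bases between them, on both strands, and the half-site TGTTCT on either strand, which the longer motif contains. In GRCm38.p6 the full motif occurs in 3 of 32851 RefSeq promoters (0.00913%), and the half-site in 6233 of them (19.0%). Of the 15 RefSeq promoters that matched 7 of the 9 genes, 1 holds the full motif, as AGAACAGAATGTTCT from 189 to 175 bases before the start, and 4 hold a half-site. A match of letters is not evidence of binding, and its absence from 300 bases says nothing about the receptor. Below, capitals mark the motif letters found in chr10:21993640-21993939, while chr10:21994416-21994715, the promoter of the downstream start, holds neither motif. Both are on the plus strand.
Sgk1 promoter, upstream start: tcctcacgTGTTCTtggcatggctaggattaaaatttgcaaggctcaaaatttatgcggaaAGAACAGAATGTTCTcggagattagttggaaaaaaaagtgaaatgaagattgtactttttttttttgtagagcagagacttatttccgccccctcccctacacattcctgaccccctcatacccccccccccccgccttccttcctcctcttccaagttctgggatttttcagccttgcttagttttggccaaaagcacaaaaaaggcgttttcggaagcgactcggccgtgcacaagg
Sgk1 promoter, downstream start: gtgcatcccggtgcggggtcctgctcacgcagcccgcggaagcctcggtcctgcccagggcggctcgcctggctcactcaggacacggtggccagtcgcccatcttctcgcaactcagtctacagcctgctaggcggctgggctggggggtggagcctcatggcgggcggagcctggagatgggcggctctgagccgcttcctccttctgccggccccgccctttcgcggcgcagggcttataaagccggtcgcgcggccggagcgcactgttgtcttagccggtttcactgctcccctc

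**Figure D2:**
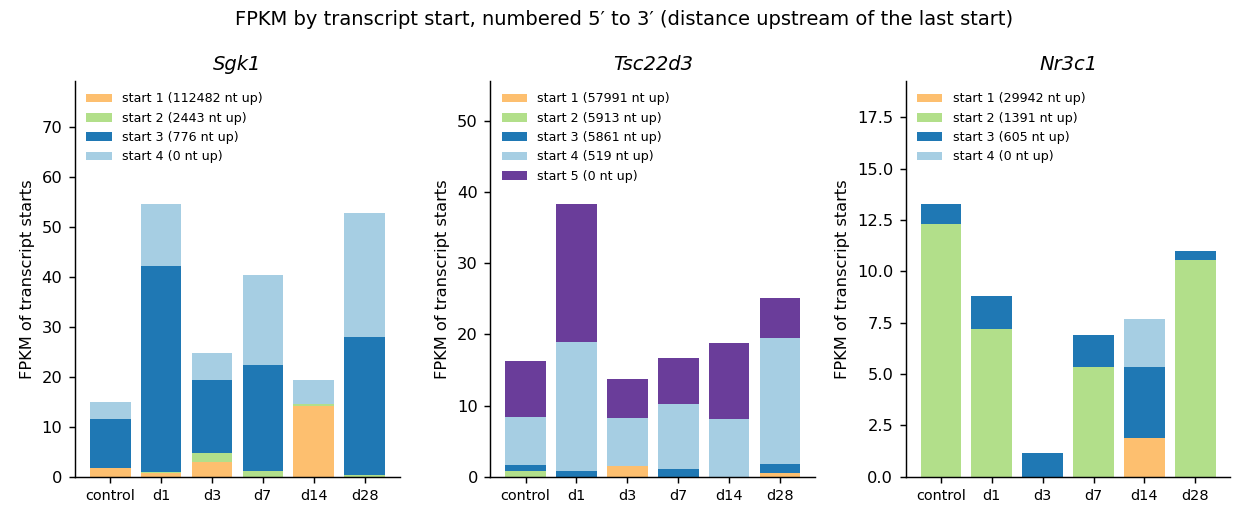
FPKM of transcript starts (vertical axis, linear from 0) of Sgk1, Tsc22d3 and Nr3c1 in the 6 libraries, stacked by start, each named by its distance in nt upstream of the last one. The last Sgk1 start reaches 24.9 FPKM at day 28 against 3.38 FPKM in the control, and the start sum of Nr3c1 drops to 1.14 FPKM at day 3, when its end was listed at 14.4 FPKM.

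Tsc22d3 (ENSMUSG00000031431, chrX:140539528-140600659, minus strand) encodes GILZ, a leucine zipper protein through which glucocorticoids restrain inflammatory transcription. Its values were 16.3 FPKM in the control and 38.3, 13.7, 16.7, 18.8 and 25.2 FPKM at days 1, 3, 7, 14 and 28. It stood at 2.36-fold at day 1 and at 1.55-fold at day 28, below the control at day 3 (0.84-fold) and near it at days 7 and 14 (1.02-fold and 1.16-fold). A higher ratio was found for 3.58% of genes at day 1 and for 8.14% at day 28.

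The 2 main starts of Tsc22d3, 519 bases apart, differed at day 28. The upstream one, at chrX:140543187, had 6.70, 18.1, 6.77, 9.12, 8.07 and 17.8 FPKM in the control and at days 1, 3, 7, 14 and 28. The downstream one, at chrX:140542668, had 7.85, 19.4, 5.46, 6.47, 10.7 and 5.64 FPKM in the same order. Both were thus high at day 1, and at day 28 the upstream start stood at 2.65-fold and the downstream one at 0.72-fold. The upstream start had no promoter in the RefSeq table used. That of the downstream start, on the minus strand at chrX:140542619-140542918, is shown to set beside those of Fkbp5 and Sgk1, and it holds neither motif.
Tsc22d3 promoter, downstream start: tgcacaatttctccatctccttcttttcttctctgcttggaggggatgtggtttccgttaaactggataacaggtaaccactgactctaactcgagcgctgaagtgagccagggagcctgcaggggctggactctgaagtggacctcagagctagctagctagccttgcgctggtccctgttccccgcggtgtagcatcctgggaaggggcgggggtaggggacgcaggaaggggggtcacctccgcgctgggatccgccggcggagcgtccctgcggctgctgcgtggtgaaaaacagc

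Plin4 (ENSMUSG00000002831, chr17:56100591-56109803, minus strand) encodes perilipin 4, a coat protein of lipid droplets. It was listed at 2.13 FPKM at day 1, 0.495 FPKM at day 14 and 2.99 FPKM at day 28, and was not listed in the control or at days 3 and 7. With the unlisted control taken as 0 it counted as higher at days 1 and 28, and no ratio is given. The files hold 45 events for it, 42 of them splicing events. Of the 10 distinct introns and skipped segments among them, 8 have lengths that are whole multiples of 99 nt. Plin4 is known for a long array of near-identical repeats in its coding sequence, and the assignment of reads within the gene is uncertain for that reason.

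Zbtb16 (ENSMUSG00000066687, chr9:48654297-48836222, minus strand) encodes PLZF, a zinc finger repressor. It had 4.73 FPKM in the control and 7.63, 4.21, 3.22, 0.756 and 5.19 FPKM at days 1, 3, 7, 14 and 28. Day 1 was highest, at a log2 ratio of 0.68 that did not pass 2-fold, and day 28 was near the control at 0.13. Day 14 was lowest by far, at -2.50, or -1.71 with a pseudocount of 1 FPKM. The gene's listed end, which reaches 2496 nt past the annotated span, was not listed in that library, and of the genes whose median in the other libraries was at least 5 FPKM, 38 were not listed at day 14 against 2 to 7 in each of the other libraries. The part of this in the Zbtb16 value was not tested.

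Cdkn1a (ENSMUSG00000023067, chr17:29090976-29100727, plus strand) encodes p21, an inhibitor of cyclin-dependent kinases that p53 and glucocorticoids both induce. It was measured at 3.85 FPKM in the control and at 55.3, 11.7, 10.1, 10.3 and 8.21 FPKM at days 1, 3, 7, 14 and 28. Its day 1 ratio of 3.81 (14.4-fold) was exceeded by 0.73% of genes. Alone among the 9 it was past 2-fold at every later day, at 3.04-fold, 2.63-fold, 2.67-fold and 2.13-fold. Nearly all of it came from the start at chr17:29093772, with 3.74, 55.0, 10.8, 9.73, 9.50 and 8.12 FPKM in the 6 libraries. The RefSeq promoter within 5 bases of that start, on the plus strand at chr17:29093519-29093818, is shown as that of the gene with the largest ratio, and holds neither motif.
Cdkn1a promoter: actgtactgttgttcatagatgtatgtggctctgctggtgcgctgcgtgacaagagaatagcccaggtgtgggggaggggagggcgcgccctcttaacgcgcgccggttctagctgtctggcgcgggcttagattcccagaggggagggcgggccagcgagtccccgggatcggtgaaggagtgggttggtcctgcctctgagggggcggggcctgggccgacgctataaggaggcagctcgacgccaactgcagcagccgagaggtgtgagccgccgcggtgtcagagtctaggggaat

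Other targets of p53 were read beside Cdkn1a. At day 1, 3 of the 16 compared were higher past 2-fold, 1 was lower, and the median log2 ratio was 0.44, beside 5.11% higher, 4.48% lower and a median of 0.01 over all genes. With a pseudocount of 1 FPKM only 1 of these genes, Trp53inp1, was past 2-fold at day 1. Of all genes, 3.19% were then higher and 2.53% lower. The 3 higher ones were the death receptor gene Fas (0.565 FPKM in the control, 2.12 FPKM at day 1), Trp53inp1 (1.93 and 5.62 FPKM) and the BH3-only gene Pmaip1 (0.729 and 1.82 FPKM). The lower one was the death receptor gene Tnfrsf10b, at 1.52 FPKM in the control and 0.369 FPKM at day 1. Mdm2, which encodes the ubiquitin ligase of p53, stood at 12.2 FPKM in the control and at 23.6 FPKM at day 1, a log2 ratio of 0.95, and between 11.5 and 15.5 FPKM later. At day 28, 0 of the 14 compared were higher and 1, Tnfrsf10b, which was not listed then, was lower, beside 3.68% and 2.79% of all genes.

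Day by day, the counts of the 9 genes were set against those of all genes. At day 1, 5 of 9 were higher past 2-fold (Fkbp5, Sgk1, Tsc22d3, Plin4 and Cdkn1a), where 5.11% of all 11790 genes compared were, and none of the 9 was lower, where 4.48% of all genes were. At day 3 only Cdkn1a of 8 was higher and 0 lower, against 8.54% and 2.53% of all genes. At day 7 Sgk1 and Cdkn1a of 8 were higher and 0 lower, against 8.53% and 2.12%. At day 14 Cdkn1a alone of 8 was higher (8.97% of all genes) and Zbtb16 alone was lower (6.92%). At day 28, 4 of 9 were higher (Fkbp5, Sgk1, Plin4 and Cdkn1a), against 3.68% of 11751 genes, and 0 lower, against 2.79%. With a pseudocount of 1 FPKM, Fkbp5 and Cdkn1a no longer passed 2-fold at day 28, at log2 ratios of 0.95 and 0.93. The median log2 ratio over those compared was 1.23, -0.02, 0.08, 0.12 and 0.63 at days 1, 3, 7, 14 and 28. The median of all genes ran from 0.01 to 0.10. At days 1 and 28 the median over the 9 includes Plin4 with its unlisted control taken as 0. Without Plin4, the middle ratios of the other 8 were those of Zbtb16 (0.68) and Tsc22d3 (1.23) at day 1. At day 28 they were those of Nr3c2 (0.26) and Tsc22d3 (0.63). The 5 comparisons share 1 control library.

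**Figure D3:**
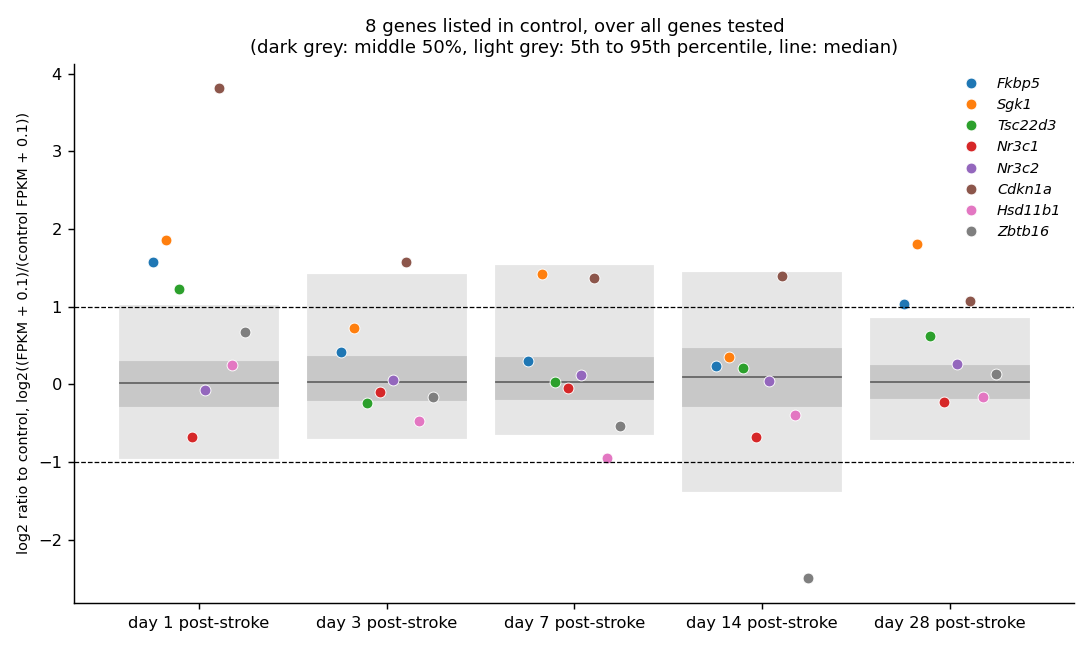
Log2 ratio to the control (vertical axis) of each gene listed in both libraries at each post-stroke day (horizontal axis), with the middle 50% and the 5th to 95th percentile of all genes compared as shaded bands and the 2-fold lines dashed. Cdkn1a, Sgk1, Fkbp5 and Tsc22d3 lie above the upper band at day 1, Zbtb16 lies below the lower one at day 14, and Nr3c2 stays within the middle band except at day 28.

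A wider list of 38 glucocorticoid-induced genes outside the 9, of which 33 had a value, likewise had its highest count at day 1. At day 1, 15 of 31 compared were higher past 2-fold and 0 lower, with a median log2 ratio of 0.80, beside 5.11% and 4.48% of all genes. At days 3, 7 and 14, 6 of 30, 5 of 30 and 9 of 31 were higher, with medians of 0.34, 0.37 and 0.30, beside 8.54%, 8.53% and 8.97% of all genes. At day 28 6 of 30 were, with a median of 0.42, beside 3.68% of all genes. These medians also take a gene not listed in 1 of the 2 libraries as 0 there, such as Lcn2 in the control. At each of days 3, 14 and 28, 1 gene of the list counted as lower, beside 2.53%, 6.92% and 2.79% of all genes. Each counted only because it was not listed at that day (Arrdc2 at days 3 and 28, Tgfbr3 at day 14). The list also holds genes of inflammation and gliosis, so that its members are not particular to the hormone.

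Those with the largest day 1 ratios were Tgm2, which encodes a transglutaminase, at 1.37 FPKM in the control and 6.17 FPKM at day 1, and Nfkbia, which encodes an inhibitor of NF-kappaB, at 6.95 and 28.9 FPKM. Lcn2, an acute phase gene of reactive astrocytes and neutrophils, was not listed in the control and had 15.5, 16.9, 3.09, 26.6 and 1.10 FPKM at days 1, 3, 7, 14 and 28. Not all genes were back near the control at day 14: Nfkbia stood at 15.0 FPKM then and at 14.6 FPKM at day 28. The sulfotransferase gene Sult1a1, named here after its values were seen, differed again, with 2.02 FPKM in the control, 4.57, 5.54, 3.74 and 5.48 FPKM at days 1 to 14 and its highest value of 9.53 FPKM at day 28.

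**Figure D4:**
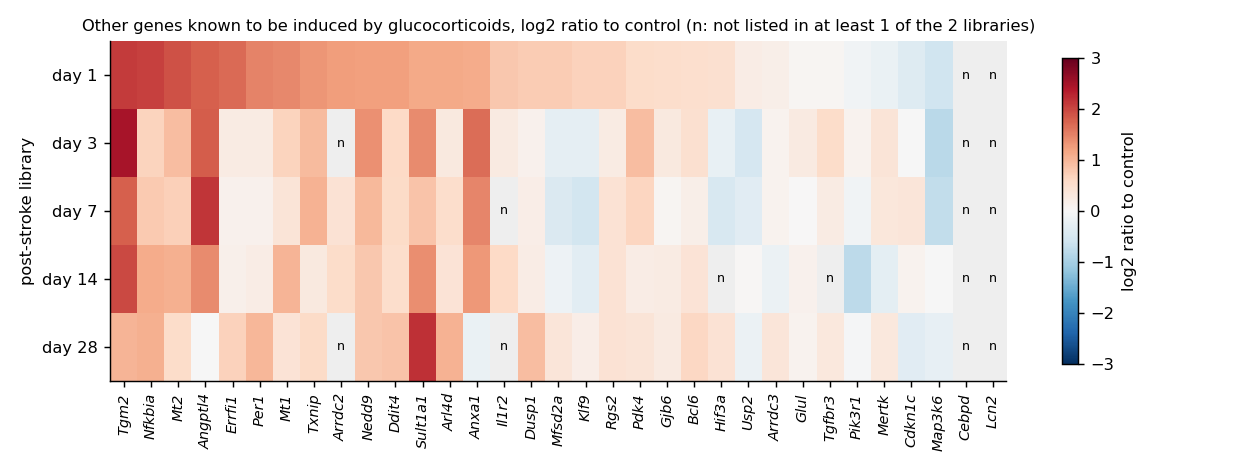
Log2 ratios to the control (colour, blue below and red above 0) of the wider glucocorticoid-induced list, 1 column per gene and 1 row per post-stroke day, with n where the gene was not listed in at least 1 of the pair of libraries. The higher genes past 2-fold number 15 at day 1, of which Lcn2 has no ratio, and 6 at day 28, of which Lcn2 and Cebpd have none.

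The day 1 and day 28 libraries both stood above days 3, 7 and 14 for 6 of the 9 genes (Fkbp5, Sgk1, Tsc22d3, Plin4, Hsd11b1 and Zbtb16), a pattern looked for after the values had been seen. Of all 12709 genes that could be read this way, 9.56% had it. With the added condition that both days also lie above the control, 5 of the 9 had it, Hsd11b1 dropping out, and 6.14% of all genes. Plin4 is counted in both forms with the control and days 3 and 7, where it was not listed, taken as 0. In the wider list 10 of 32 (31.2%) met the stricter form, among them the clock gene Per1, Errfi1, whose product restrains the epidermal growth factor receptor, the phosphatase gene Dusp1 and the mTORC1 inhibitor gene Ddit4. Per1 had 9.63 FPKM in the control and 27.2, 11.4, 10.6, 11.3 and 19.2 FPKM at days 1, 3, 7, 14 and 28, close in shape to Fkbp5.

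The machinery around the receptor was read in the same way. Of 11 genes for receptors and coregulators, the receptors included, Med1 was higher past 2-fold at day 1 (2.66 FPKM in the control, 5.49 FPKM) and Ncoa2 was lower at day 1 (3.76 and 1.55 FPKM) and at day 14 (0.667 FPKM). Nrip1 was not listed at day 14 and counted as lower. These 2 of 11 at day 1 and 2 of 11 at day 14 stand beside 9.58% and 15.9% of all genes past 2-fold in either direction at those days, and 0 of 11 passed it at days 3, 7 and 28, where 11.1%, 10.7% and 6.47% of all genes did. Of 11 chaperones and co-chaperones of the receptor with a value, only Fkbp5 passed 2-fold at any day. Its closest relative on the list, Fkbp4, which encodes a co-chaperone that aids the receptor's transport, had 43.8 FPKM in the control and 53.1, 43.0, 42.5, 49.6 and 48.9 FPKM at days 1, 3, 7, 14 and 28.

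Among 8 genes of steroid metabolism and stress hormones with a value, 3 of 8, 2 of 7, 3 of 8, 2 of 7 and 2 of 7 compared counted as higher past 2-fold at days 1, 3, 7, 14 and 28. Of all genes 5.11%, 8.54%, 8.53%, 8.97% and 3.68% did. Those of the list were at all days genes that the control did not list. H6pd, whose product supplies the cofactor that Hsd11b1 uses, had 1.04, 2.11, 2.49, 0.476 and 1.16 FPKM at days 1, 3, 7, 14 and 28. Avp, the gene for vasopressin and a marker of hypothalamic neurons, had 18.9, 4.24, 18.1, 11.7 and 3.01 FPKM. Pomc had 1.60, 1.29 and 2.72 FPKM at days 1, 7 and 14 and was not listed at days 3 and 28. Akr1c18, a steroid reductase gene, was lower at day 7, at 0.311 FPKM against 1.25 FPKM in the control, as 1 of 8 compared beside 2.12% of all genes.

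For each gene listed throughout, the 3 genes most like it in pattern were taken by Pearson r of log2(FPKM + 0.1) over the 6 libraries, among about 10168 genes with at least 1 FPKM in all. With 6 points and so many genes high values are common, and they are a description only. Those nearest to Fkbp5 were Dnajb1 (0.994), which encodes a heat shock cochaperone, Per1 (0.992) and Nob1 (0.985). Nearest to Sgk1 were Ndufaf5 (0.981), Bcor (0.978) and Ccdc117 (0.972), and nearest to Tsc22d3 Ptpdc1 (0.994), Mrtfa (0.988) and Cfap36 (0.986). Cdkn1a was nearest to Dolpp1, Carhsp1 and Mafk, with r from 0.985 to 0.992. Med13l, Chd4 and Phlpp1 were nearest to Nr3c1, Atg13, Pbx3 and Osbp to Nr3c2, Fancl, Ppp1r14c and Foxk2 to Hsd11b1, and Rnf2, Mthfd1l and Zfp131 to Zbtb16. Among the 9 genes themselves, Fkbp5 had an r of 0.91 with Tsc22d3, 0.84 with Sgk1 and 0.82 with Cdkn1a.

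The libraries differed in ways that bear on these values. They list 83501 events (day 14) to 99187 events (day 7). All 8 neuronal markers were listed in every library, with a summed FPKM from 1399 (day 3) to 1910 (control). The summed FPKM of 3 choroid plexus markers (Ttr, Folr1 and Kl, all listed) was 285 in the control and 462, 181, 344, 296 and 559 at days 1, 3, 7, 14 and 28, with days 1 and 28 highest as for Fkbp5 and Sgk1. Nearly all of this sum is Ttr, at 279 FPKM in the control. Folr1 had 2.34, 7.56, 1.55, 4.17, 2.47 and 5.69 FPKM in the control and at days 1, 3, 7, 14 and 28, again with days 1 and 28 highest, whereas Kl had 3.69, 4.05, 2.70, 4.10, 2.33 and 5.12 FPKM, with day 1 slightly below day 7. Markers of hypothalamic neurons (3 of 4 listed, Hcrt not) summed to 54.3 at day 1, to 33.3 at day 7 and to 4.49 at day 28, and were not listed in the control. Macrophage markers summed to 8.94 in the control and to 15.4, 155, 365, 202 and 28.7 at days 1, 3, 7, 14 and 28. The day 7 sum is nearly all Lyz2, at 357 FPKM. Ms4a7 and Cd163 were also highest at day 7, whereas Mrc1 and Arg1 were highest at day 3 (3.74 and 12.5 FPKM) and Ccr2 at day 1 (0.199 FPKM). At day 7 Fkbp5 stood at 1.24-fold, Tsc22d3 at 1.02-fold, Sgk1 at 2.68-fold and Cdkn1a at 2.63-fold. Neutrophil markers summed to 0.0729 in the control, 16.3 at day 1 and 9.16 at day 14, and none was listed at day 28, with the defining genes Ly6g and Mpo not listed in any library. The part of dissection and of cell makeup in the levels of the 9 genes was not tested, and in bulk tissue fewer cells of a type cannot be told apart from less RNA per cell.

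**Figure D5:**
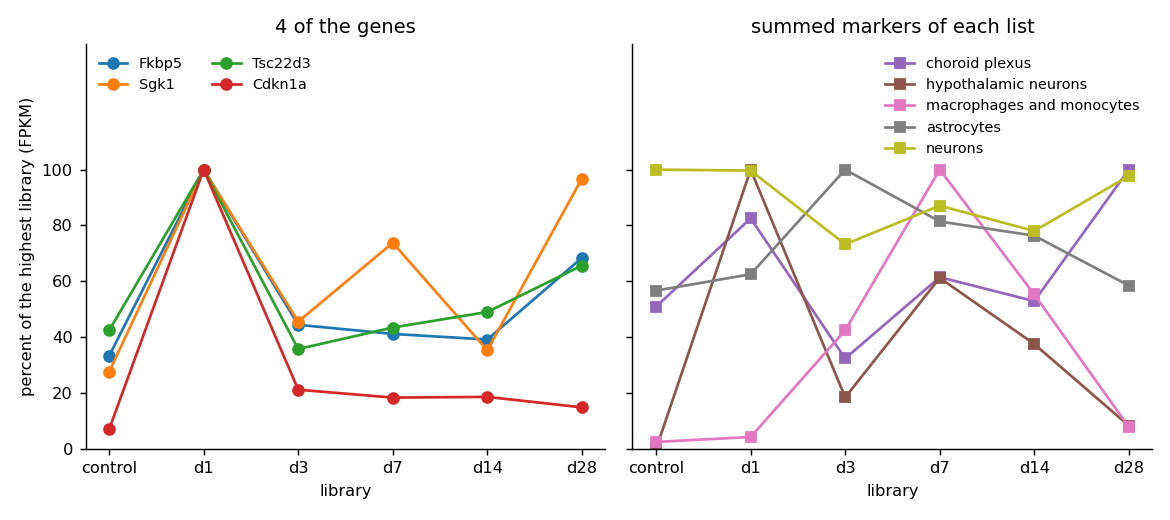
Fkbp5, Sgk1, Tsc22d3 and Cdkn1a (left) and the summed markers of choroid plexus, hypothalamic neurons, macrophages, astrocytes and neurons (right) in the 6 libraries, each in percent of its own highest library (vertical axis). The choroid plexus sum is highest at day 28 (559 FPKM) and day 1 (462 FPKM), the macrophage sum at day 7 (365 FPKM), when it is nearly all Lyz2.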

How the data were processed

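Total RNA of the ipsilateral cortex was pooled from 3 mice per group, poly(A)-selected and sequenced as paired 150-base reads, giving 1 library per group. The deposited tables hold, per the file headers, the FPKM that the authors obtained for each transcript start, transcript end and splicing event on mm10. The submitters' processing notes name Trimmomatic 0.30, HISAT2 2.0.1 and HTSeq 0.6.1, and the tool that called the events is not given in the sources used here.

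Genes were taken by Ensembl identifier (15411 of 15441 are in GENCODE M21, whose spans are given), and the value of a gene is the largest of its summed starts, summed ends and any single event. All events of the 9 genes overlap their annotated spans. Ratios used a pseudocount of 0.1 FPKM and genes with at least 1 FPKM in 1 of the 2 libraries. Genes not listed were taken as 0 only for counts and for summaries over several genes, such as medians. With 1 library per group there is no test, no p-value and no interval, and depth per library is unknown. The correction for length subtracts the median log2 ratio in 20 bins of transcript length. Named are the 9 genes, the 3 nearest in pattern to each, and at most 3 past 2-fold per list and day, and any other named gene was chosen after its values were seen. The members, the 5 pathway lists and the 14 marker lists were chosen with earlier results of these data known. The alternatives tried were 12 planned and 1 added after the data were seen. Promoters are RefSeq's (GRCm38.p6), which has the coordinates of mm10. Scripts ran in Python 3.11.15 with pandas 2.3.3, numpy 2.4.6, scipy 1.17.1 and matplotlib 3.10.9 and were tested on simulated data.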

Additional observations from a re-analysis of the deposited data

How the results depend on the processing

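With 1 library per group no library could be left out, and no paired analysis was possible because each group has 1 library. Counts past 2-fold in either direction were 5, 1, 2, 2 and 4 of the 9 genes at days 1, 3, 7, 14 and 28. Of all genes compared, 9.58%, 11.1%, 10.7%, 15.9% and 6.47% passed it at those days. The counts of the other lists that follow are of genes past the threshold at any day. No share of all genes past it at any day was computed, so those counts have no background beside them. With a pseudocount of 1 FPKM, 2 remained at day 28 (Sgk1 and Plin4, with Fkbp5 at a log2 ratio of 0.95), beside 2.05% of all genes higher and 1.56% lower. The p53 targets past 2-fold at any day then numbered 2. With 1 FPKM required in both libraries, 1 of the 9 was counted at day 14, beside 4.96% of all genes higher and 2.84% lower. At any day 0 genes of steroid metabolism and 1 p53 target were. At a threshold of 1.5-fold the count was 2 at day 3, beside 15.9% of all genes higher and 6.60% lower. At any day the counts were 8 receptors and coregulators, 3 chaperones, 26 of the wider list and 8 p53 targets. At 4-fold they were 2 at day 1 (Plin4 and Cdkn1a), 0 at days 3 and 7, 1 at day 14 (Zbtb16) and 1 at day 28 (Plin4). Of all genes, 1.78%, 2.98%, 3.46%, 3.01% and 1.21% were then higher at days 1, 3, 7, 14 and 28. The shares lower were 1.59%, 0.70%, 0.60%, 3.74% and 0.99%. At any day the 4-fold counts were 0 chaperones, 8 of the wider list and 2 p53 targets. On summed starts alone the counts were 3 at day 3, with Nr3c1 at -3.43 and Hsd11b1 at 4.20, 8 receptors and coregulators and 2 chaperones. On summed ends alone the counts of the 9 genes were 1 at days 1 and 7 (Cdkn1a) and 2 at day 28 (Plin4 and Cdkn1a). Of all genes, 7.42%, 10.5% and 5.51% were then higher at days 1, 7 and 28, and 5.38%, 3.34% and 3.95% lower. Fkbp5 and Tsc22d3 have no listed end, and the ends of Sgk1, and of Plin4 at day 1, were below 1 FPKM. Among genes listed in both libraries, an alternative added after the data were seen, 1 gene of steroid metabolism was left. No called ratio of the 9 genes changed sign under any alternative. Uncalled ratios did, that of Hsd11b1 at day 7 going from -0.95 to 3.55 on summed starts. Over the alternatives, 10 ratios of the 9 genes moved by at least 1.5-fold and 296 did not. Of the counts of the 9 genes per day and of the lists at any day, 105 stayed within 1.5 times and 25 did not. Of the lists' counts per day, 249 did and 76 did not. Depth is unknown, so low values such as those of Plin4 carry no error.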

Other observations

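Some genes of the wider glucocorticoid-induced list, named here after their values were seen, are described further. The metallothionein genes Mt1 and Mt2, which encode metal-binding proteins, were high to begin with and highest at day 1. Mt1 had 241 FPKM in the control and 653, 386, 313, 492 and 322 FPKM at days 1, 3, 7, 14 and 28, and Mt2 had 126, 475, 239, 208, 265 and 186 FPKM in the same order, both above the control at every day. Angptl4, which encodes an inhibitor of lipoprotein lipase, was listed at 0.617 FPKM in the control and at 2.40, 2.41, 3.08, 1.81 and 0.609 FPKM. Anxa1, the gene for annexin A1, stood at 1.29 FPKM in the control and at 2.92, 4.37, 3.72, 3.32 and 1.11 FPKM. Angptl4 and Anxa1 were above the control from day 1 to day 14. At day 28 they were near it, at 0.99-fold and 0.86-fold, with Angptl4 below 1 FPKM in both libraries. Klf9, a transcription factor gene with day 1 and day 28 highest as for Fkbp5, had 56.0 FPKM in the control, 90.2 FPKM at day 1 and 63.9 FPKM at day 28, and between 38.3 and 46.8 FPKM at days 3, 7 and 14, all below the control.

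The marker lists not given above had these ranges of summed FPKM over the libraries. Astrocytes ran from 857 (control) to 1512 (day 3), oligodendrocytes from 1548 (day 28) to 2177 (day 1), microglia from 95.1 (day 1) to 305 (day 7), and fibroblasts from 23.9 (control) to 83.2 (day 7). Most of the astrocyte range is Gfap, at 85.8 FPKM in the control and 698 FPKM at day 3. Endothelium ran from 10.9 (day 1) to 29.1 (day 3), pericytes from 16.3 (day 1) to 30.1 (day 3), and erythrocytes from 84.5 (day 7) to 285 (day 3). T cell markers summed to between 1.49 and 4.56, and the oligodendrocyte precursor marker Cspg4 ran between 1.10 and 3.41. The T cell sum is Cd4 alone except at day 14, when Cd3e was listed at 0.131 FPKM, and Cd3g and Cd8a were listed in no library.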
